A study of Mus musculus with 4 samples.

Results

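The 45 genes described here encode glycoproteins, proteoglycans and crosslinking enzymes of the extracellular matrix. They were chosen by name and role, with earlier results of these data known. They fall into 5 functional groups: 15 genes of elastic fibres and their microfibrils, 9 proteoglycans, 8 adhesive and matricellular glycoproteins, 8 laminins and nidogens, and 5 genes of crosslinking and collagen processing. Each gene was read from the probe set (a group of short probes for 1 transcript) that carries exactly 1 gene symbol and has the highest mean over the 4 arrays. By this rule 42 of the 45 genes were measured, out of 13097 genes with a probe set bright enough to be tested, and each of the 42 passed the filter on dim probe sets. Fbn1 and Efemp2 had no probe set with their symbol, and the 2 probe sets of Loxl2 also carry the symbol of another gene, so these 3 genes are not analysed here.

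The arrays compare 2 lines of RBP2-/- primary mouse embryonic fibroblasts with 2 wild-type lines, all at passage 3 and with 1 array per line. RBP2 is the histone H3 lysine 4 demethylase now called Kdm5a, and primary embryonic fibroblasts are mesenchymal cells taken straight from embryos into culture. Nothing in the sources used here gives the strain, the age of the embryos or the deleted part of the gene. The question is whether transcripts of the matrix differ in level between cells without RBP2 and wild-type cells.

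Fibroblasts build most of the fibrous matrix of connective tissue. Elastic fibres form when elastin is laid onto microfibrils of fibrillins, with the help of fibulins and latent TGF-beta binding proteins, and lysyl oxidases then crosslink elastin and collagen. Small leucine-rich proteoglycans such as decorin and biglycan bind collagen fibrils and set their spacing, while laminins and nidogens make up the sheet of basement membranes. The histone methylation that RBP2 erases is concentrated at active promoters and above all at those rich in CpG, the dinucleotide C followed by G.

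Promoter windows of 300 bases, from 250 before to 50 after the annotated start of a gene, were available from RefSeq (build GRCm38.p6) for 30 of the 45 genes, as 38 windows. At least 10 CpG stood in 19 of them, or 50%, against 43.5% of all 32851 windows of the same length. The range ran from 1 CpG in Lama2 to 41 in Efemp2. The windows of 3 measured genes are printed, those with the most CpG (Hspg2) and the fewest (Lama2) and that of Efemp1, which had the largest estimate, and capitals mark each CpG.
Efemp1, chr11:28852955-28853254, plus strand, 11 CpG: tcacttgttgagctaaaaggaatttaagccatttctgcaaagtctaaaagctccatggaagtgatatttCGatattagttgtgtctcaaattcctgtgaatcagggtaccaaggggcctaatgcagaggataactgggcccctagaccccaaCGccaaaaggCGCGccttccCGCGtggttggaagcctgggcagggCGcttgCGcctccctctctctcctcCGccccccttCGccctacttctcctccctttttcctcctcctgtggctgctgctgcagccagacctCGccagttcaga
Hspg2, chr4:137468553-137468852, plus strand, 27 CpG: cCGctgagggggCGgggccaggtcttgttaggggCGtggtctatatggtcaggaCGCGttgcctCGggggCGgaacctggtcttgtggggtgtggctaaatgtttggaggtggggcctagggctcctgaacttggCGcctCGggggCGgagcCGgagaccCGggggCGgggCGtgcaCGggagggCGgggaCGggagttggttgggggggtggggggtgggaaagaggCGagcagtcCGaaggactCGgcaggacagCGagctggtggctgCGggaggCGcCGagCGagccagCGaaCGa
Lama2, chr10:27616893-27617192, minus strand, 1 CpG: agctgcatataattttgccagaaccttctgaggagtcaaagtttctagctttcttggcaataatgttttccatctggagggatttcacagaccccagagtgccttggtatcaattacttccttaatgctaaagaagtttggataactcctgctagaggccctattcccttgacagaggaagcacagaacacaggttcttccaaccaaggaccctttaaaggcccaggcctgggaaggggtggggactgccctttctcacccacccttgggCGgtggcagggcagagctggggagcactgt
CpG recur along most of the window of Hspg2, lie mainly in the later part of that of Efemp1, and occur once in that of Lama2. Of the 28 measured genes with a window, 13 had a window with at least 10 CpG, and their log2 fold changes had a median of -0.14 and ran from -0.57 to 1.40. The other 15 had a median of -0.10 and ran from -0.65 to 0.53, so the ranges overlapped along most of their length.

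The letters TATAAA, the core of a TATA box, were searched on both strands and occurred in 7 of the 38 windows, from 6 genes, against 13.6% of all windows. On the sense strand they occurred in 5 genes, and in 8.32% of all windows, but a count of genes does not compare directly with a share of windows. Of these 5 genes, 3 are adhesive and matricellular glycoproteins, Postn, Ecm1 and Tnc, and the overlapping windows of Tnc hold the same motif. In Postn and Ecm1 they begin 26 and 27 bases before the start, the usual place of a TATA box, and capitals mark them here.
Postn, chr3:54360857-54361156, plus strand: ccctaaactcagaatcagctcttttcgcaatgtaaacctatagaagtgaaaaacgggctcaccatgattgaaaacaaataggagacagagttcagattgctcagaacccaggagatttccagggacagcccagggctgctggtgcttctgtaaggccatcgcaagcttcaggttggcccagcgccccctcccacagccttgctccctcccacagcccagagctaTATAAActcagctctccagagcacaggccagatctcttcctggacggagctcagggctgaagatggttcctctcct
Ecm1, chr3:95739520-95739819, minus strand: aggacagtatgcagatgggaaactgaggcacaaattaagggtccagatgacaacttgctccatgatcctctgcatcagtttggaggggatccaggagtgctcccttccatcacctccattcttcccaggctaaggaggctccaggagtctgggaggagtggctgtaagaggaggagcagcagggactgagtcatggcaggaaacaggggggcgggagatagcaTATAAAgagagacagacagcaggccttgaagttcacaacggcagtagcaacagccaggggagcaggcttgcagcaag
Both genes had log2 fold changes near 0, of 0.05 for Postn and 0.06 for Ecm1.

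The deposited signals had trimmed means from 61.7 to 152 between arrays and were brought to a common level before any comparison. Wild-type replicate 1 stood apart, with correlations over tested probe sets of 0.927 to 0.929 with the other arrays, which had 0.948 to 0.965 among themselves. On the brightest probe set, Kdm5a itself read 6.40 and 6.49 in RBP2-null lines and 6.72 and 7.65 in wild-type lines on the scale defined below. The difference was -0.74 (SE 0.34, limma adjusted p 1.00), with both RBP2-null lines below both wild-type lines. A second probe set had 4.52 and 5.21 in RBP2-null lines and 5.84 and 6.39 in wild-type lines, a difference of -1.24 (SE 0.41, limma adjusted p 1.00), again without overlap. Dimmer ones had -0.25, 0.15 and 0.24, and which of them lie in the deleted part is not known here. All 10 fibroblast markers passed the filter, with summed normalized signals of 30807 and 33965 in RBP2-null lines and 30042 and 35429 in wild-type lines. For 8 of 9 marker lists of other cell types the summed signal was highest in wild-type replicate 1. How often that array was the highest over all tested probe sets was not counted. Leukocyte markers are an example, with 315 and 316 in RBP2-null lines and 518 and 361 in wild-type lines over 8 genes, of which 5 passed the filter. For smooth muscle the lead was narrow, with 17425 against 17117 in RBP2-null replicate 1. Erythroid sums were only 51 to 113, and sums of such dim probe sets need not reflect cells of that type. Nor need sums that rest mostly on 1 gene. In wild-type replicate 1, Epcam made up 598.9 of the epithelial sum of 828, and Nes 655.6 of the neural sum of 784. In such bulk samples, fewer cells of a type and less RNA per cell cannot be told apart. Values below are normalized log2(signal + 9), and fold changes are differences of their group means on that scale, RBP2-null minus wild type.

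None of the 42 matrix genes passed the threshold of an adjusted p of 0.05 (limma, Benjamini-Hochberg over 27022 probe sets), 0 in either direction, beside 1 call or 0.0037% among all tested probe sets. An unadjusted limma p under 0.05 was reached by 2 of the 42, Eln and Efemp1, against 2.98% of all tested probe sets. Estimates lay above 0 for 20 genes and below 0 for 22, with a median of -0.041, beside 0.003 over all tested probe sets. Both RBP2-null arrays lay above both wild-type arrays for 1 gene, Dcn, against 14.6% of all tested probe sets. Both lay below for 6 genes, Eln, Fbln1, Mfap2, Ltbp2, Lama2 and Loxl1, against 14.9%.

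The 95% intervals give a range for the difference on the probe set read for each gene, on the normalized scale and given the spread among these lines. For 27 of the 42 genes the whole 95% interval lay inside a 2-fold change in either direction, against a smaller share, 51.9%, of all tested probe sets. The median standard error was 0.24 for the matrix genes and 0.33 for all tested probe sets, and the spread assigned by the fit depends on brightness. Fn1 (fibronectin), Sparc, Bgn (biglycan) and Lox were among those with the narrowest intervals, given below with their groups. Dim probe sets of Sparc and Lox, with log2 fold changes of -0.84 and 0.82, lay outside the intervals of the probe sets read.

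**Figure D1:**
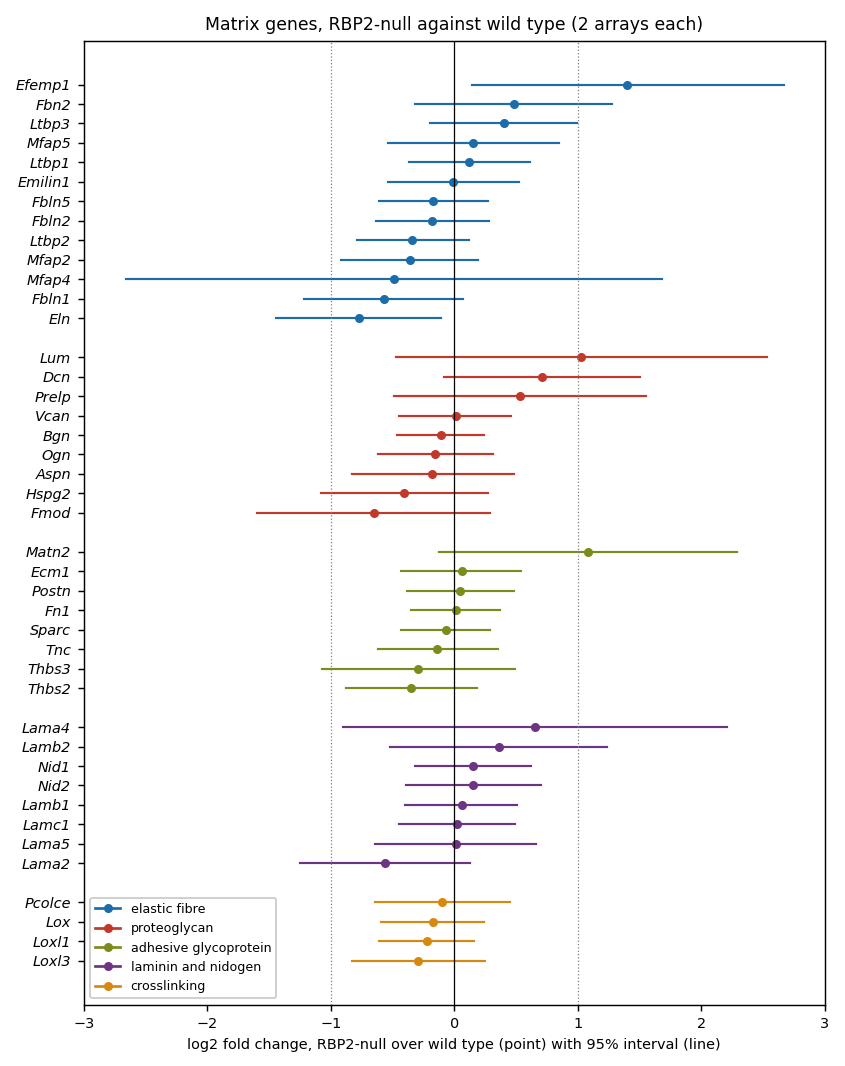
Log2 fold change of each of the 42 measured matrix genes, RBP2-null over wild type (x axis), with its 95% interval from limma. Colours mark the functional groups and dotted lines a 2-fold change; the estimates run from -0.77 for Eln to 1.40 for Efemp1, and most intervals cross 0.

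In the elastic fibre group, Efemp1 and Eln had the largest estimates, in opposite directions, and no gene passed the threshold. Of the 13 measured genes, 8 lay below 0 and 5 above, and the median log2 fold change was -0.168. Eln, which encodes elastin, the stretchable core of the fibre, had 7.06 and 7.06 in RBP2-null lines and 8.18 and 7.49 in wild-type lines. The groups did not overlap, and wild-type replicate 1 was the highest array. The log2 fold change of Eln was -0.77 (SE 0.29, 95% interval -1.44 to -0.11, limma adjusted p 1.00), and it was -0.43 if wild-type replicate 1 is left out. As deposited, before scaling, Eln had 95.1 and 196.8 in RBP2-null lines and 172.1 and 176.9 in wild-type lines, so the separation of the groups arises only once the arrays are set to a common level.

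Efemp1 encodes fibulin-3, a short fibulin of microfibrils. It had 8.98 and 10.16 in RBP2-null lines and 7.28 and 9.05 in wild-type lines. The groups overlapped slightly, since RBP2-null replicate 1 lay below wild-type replicate 2, and wild-type replicate 1 was far below the rest. Its log2 fold change was 1.40 (SE 0.56, 95% interval 0.14 to 2.67, limma adjusted p 1.00). Leaving out wild-type replicate 1 gave 0.52, and leaving out wild-type replicate 2 gave 2.29.

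Fbln1, fibulin-1, which binds elastin and fibronectin, had 7.60 and 6.98 in RBP2-null lines and 7.78 and 7.95 in wild-type lines. Its groups did not overlap, and the log2 fold change was -0.57 (SE 0.28, limma adjusted p 1.00). Dimmer Fbln1 probe sets had log2 fold changes of -0.17 and 0.34. Ltbp2, a binding protein of microfibrils, had 9.29 and 9.20 in RBP2-null lines and 9.69 and 9.47 in wild-type lines, again without overlap. Its log2 fold change was -0.34 (SE 0.20, limma adjusted p 1.00).

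The other elastic fibre genes are given by their fold changes. Mfap2, a small microfibril glycoprotein, had a log2 fold change of -0.36 (SE 0.24) without overlap between groups, and its dimmer probe set had -1.03 (SE 0.50), also without overlap. Mfap4 spanned the widest range of any gene here, with 4.10 and 5.84 in RBP2-null lines and 3.89 and 7.02 in wild-type lines, and its log2 fold change was -0.49 (SE 0.95). Fbn2, the fibrillin most abundant in embryonic tissue, had 0.48 by the brighter and 0.05 by the dimmer of its probe sets. Fibulins 2 and 5, encoded by Fbln2 and Fbln5, had log2 fold changes of -0.18 and -0.17, with intervals from -0.63 to 0.28 and from -0.61 to 0.27. The dimmer Fbln5 probe set had 0.36 (SE 0.36). The latent TGF-beta binding proteins Ltbp1 and Ltbp3 had 0.12 and 0.40, and Emilin1 and Mfap5 had -0.01 and 0.15. Dimmer probe sets of Ltbp3 and Emilin1 had 0.01 and 0.40.

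Among the 9 proteoglycans, decorin and lumican had estimates above 0 and fibromodulin and perlecan below, with 4 estimates above 0, 5 below, no gene past the threshold and a median of -0.112. Dcn, decorin, which coats collagen fibrils and binds TGF-beta, had 7.19 and 7.62 in RBP2-null lines and 6.25 and 7.13 in wild-type lines. Both RBP2-null lines lay above both wild-type lines, though RBP2-null replicate 1 and wild-type replicate 2 were nearly level. The log2 fold change of Dcn was 0.71 (SE 0.35, 95% interval -0.08 to 1.50, limma adjusted p 1.00), and it was 0.27 if wild-type replicate 1 is left out. Lum, lumican, which limits the thickness of collagen fibrils, had 6.29 and 8.29 in RBP2-null lines and 5.52 and 6.99 in wild-type lines. Replicate 2 was the higher line within each genotype, and the groups overlapped. The log2 fold change of Lum was 1.03 (SE 0.66, limma adjusted p 1.00), or 0.02 without RBP2-null replicate 2.

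Fmod, fibromodulin, another collagen-binding member of the family, had 5.72 and 6.98 in RBP2-null lines and 6.83 and 7.18 in wild-type lines. The estimate rested on RBP2-null replicate 1, the lowest array, with a log2 fold change of -0.65 (SE 0.41, limma adjusted p 1.00), or -0.02 without that array. Its 5 other probe sets had log2 fold changes from -0.47 to 0.14. Hspg2, perlecan, the heparan sulphate proteoglycan of basement membranes, had 9.31 and 9.10 in RBP2-null lines and 10.07 and 9.16 in wild-type lines. Wild-type replicate 1 alone was high, and the log2 fold change of -0.41 (SE 0.30, limma adjusted p 1.00), became 0.05 without it. A further Hspg2 probe set had -0.38. Biglycan differed little, with 12.39 and 12.49 in RBP2-null lines and 12.61 and 12.49 in wild-type lines. Its log2 fold change was -0.11 with an interval from -0.46 to 0.24, and its other probe sets had -0.12 and -0.14. Vcan, versican, the large hyaluronan-binding proteoglycan, had 0.01 with an interval from -0.45 to 0.46. Dimmer Vcan probe sets had 0.06, -0.28 and -0.32.

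Some of the small leucine-rich genes lie beside one another in the genome. Dcn and Lum are next to each other on chromosome 10, Prelp and Fmod on chromosome 1, and Aspn and Ogn on chromosome 13 with only Omd, another member of the family, between them. Dcn and Lum shared their lowest array, wild-type replicate 1, and their highest, RBP2-null replicate 2. Prelp had 5.02 and 5.70 in RBP2-null lines and 4.55 and 5.10 in wild-type lines, with a log2 fold change of 0.53, opposite in sign to its neighbour Fmod. Aspn, asporin, and Ogn, osteoglycin, had log2 fold changes of -0.18 and -0.16, and Omd between them had 0.62 (SE 0.58). A second Aspn probe set had 0.27 (SE 0.43), so the sign for Aspn depends on the probe set. Neighbouring genes thus did not share a direction in each of these clusters, and no test was made of it.

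**Figure D2:**
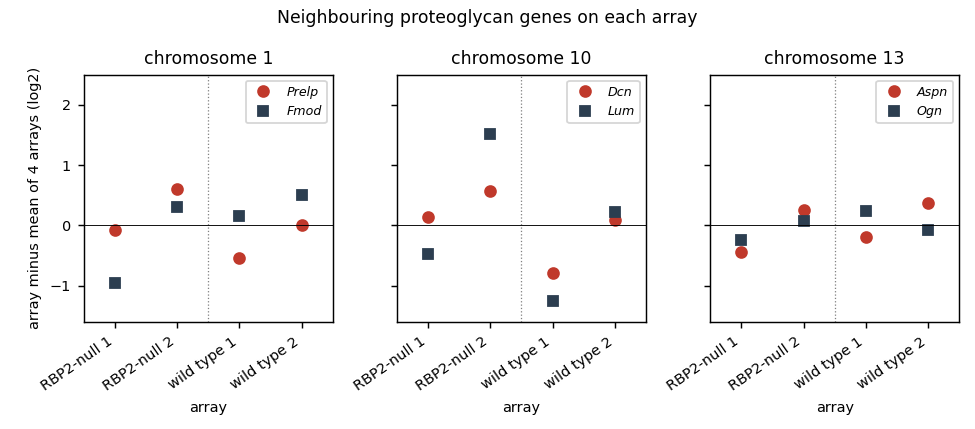
Normalized log2 signal of neighbouring small leucine-rich proteoglycan genes on each array (x axis), as the difference from the gene's own mean over 4 arrays (y axis). On chromosome 10 both Dcn and Lum are lowest in wild-type replicate 1 and highest in RBP2-null replicate 2, while Prelp and Fmod on chromosome 1 have different lowest arrays.

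Of the 8 adhesive and matricellular glycoproteins, Fn1, Sparc, Postn and Ecm1 differed by less than 0.1 on the log2 scale, and Matn2 had the one large estimate. Estimates split into 4 above 0 and 4 below, no gene passed the threshold, and the median was -0.029. Fn1, fibronectin, which links integrins to the matrix, had 13.01 and 12.81 in RBP2-null lines and 13.00 and 12.80 in wild-type lines. Its log2 fold change was 0.01 with an interval from -0.35 to 0.37. Sparc, a collagen-binding matricellular protein, had -0.07 with an interval from -0.43 to 0.29, and Postn, periostin, had 0.05 with an interval from -0.38 to 0.48. A dim Sparc probe set stood apart from the brighter ones, with a log2 fold change of -0.84 (SE 0.29).

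Matn2, matrilin-2, an adaptor protein of filamentous matrix networks, had 7.89 and 8.56 in RBP2-null lines and 6.22 and 8.07 in wild-type lines. Wild-type replicate 1 was far below the other arrays and the groups overlapped. The log2 fold change of Matn2 was 1.08 (SE 0.53, limma adjusted p 1.00), or 0.16 if wild-type replicate 1 is left out. The other probe set had -0.04. Thbs2, thrombospondin-2, an inhibitor of blood vessel growth, had 9.82 and 9.46 in RBP2-null lines and 9.76 and 10.22 in wild-type lines. Its groups overlapped, with a log2 fold change of -0.35 (SE 0.23, limma adjusted p 1.00), and further probe sets had -0.36 and -0.13. Thbs3, a related thrombospondin, had 6.11 and 5.97 in RBP2-null lines and 5.96 and 6.69 in wild-type lines, and a log2 fold change of -0.29 (SE 0.34). Tnc, tenascin-C, an anti-adhesive protein of growing and healing tissue, had 11.51 and 10.95 in RBP2-null lines and 11.42 and 11.33 in wild-type lines. Its log2 fold change was -0.14 (SE 0.21), and RBP2-null replicate 2 was the one low array. Without scaling, the log2 fold change of Tnc was 0.00 relative to the median shift of all tested probe sets, 0.384.

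Laminins are trimers of an alpha, a beta and a gamma chain, and the chains differed in their spread between arrays. The estimate was above 0 for 7 of the 8 laminin and nidogen genes and below 0 for 1, beside 13624 of 27022 tested probe sets above 0. With each array left out in turn, 2 of the 8 kept their sign. No gene passed the threshold, and the median was 0.103. The beta-1 and gamma-1 chains, found in most laminins of mesenchymal cells, had log2 fold changes of 0.06 for Lamb1, with an interval from -0.40 to 0.51, and 0.02 for Lamc1, with an interval from -0.45 to 0.49. Dimmer probe sets of these genes differed from that, with -0.25 and 0.34 for Lamb1 and -0.63 (SE 0.51) for Lamc1. Lama2, the alpha chain of muscle and nerve basement membranes, was the gene below 0, with 6.16 and 5.82 in RBP2-null lines and 6.43 and 6.68 in wild-type lines. Its groups did not overlap, and its log2 fold change was -0.56 (SE 0.30, limma adjusted p 1.00). Lama4, the alpha chain typical of vessels and mesenchyme, had 6.13 and 6.96 in RBP2-null lines and 4.69 and 7.09 in wild-type lines. Both lowest and highest arrays were wild type, and the log2 fold change was 0.65 (SE 0.68, limma adjusted p 1.00), or -0.57 without wild-type replicate 1. The other Lama4 probe set had -0.25.

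Lamb2, the beta chain of nerve-muscle junctions and the kidney filter, had 5.90 and 6.91 in RBP2-null lines and 5.90 and 6.20 in wild-type lines, with a log2 fold change of 0.36 (SE 0.39, limma adjusted p 1.00). Without RBP2-null replicate 2, its one high array, the value was -0.14. For Lama5 the brighter probe set had 0.01 and the dimmer -0.72, read from the same arrays. Nid1, nidogen-1, which links laminin to collagen IV, had 10.57 and 10.14 in RBP2-null lines and 10.26 and 10.14 in wild-type lines. The nidogens had the same estimate, a log2 fold change of 0.15 for Nid1 (SE 0.20) and of 0.15 for Nid2 (SE 0.24).

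The 4 measured genes of crosslinking and collagen processing all had small estimates below 0, with a median of -0.198, a range from -0.29 to -0.10 and no gene past the threshold. With each array left out in turn, 2 of the 4 kept their sign. For each of the 4 the 95% interval lay inside a 2-fold change. Lox, lysyl oxidase, had 12.86 and 12.47 in RBP2-null lines and 12.96 and 12.72 in wild-type lines. Its log2 fold change was -0.17 with an interval from -0.59 to 0.24, a second bright probe set had -0.07 and a dim one 0.82, so that the mean of its probe sets was 0.19. Loxl1, the lysyl oxidase of elastic fibre renewal, had 11.10 and 11.10 in RBP2-null lines and 11.22 and 11.43 in wild-type lines. It was the one gene of the 4 without overlap between groups, with a log2 fold change of -0.22 (SE 0.17, limma adjusted p 1.00). Loxl3, another lysyl oxidase of the family, had 9.20 and 8.71 in RBP2-null lines and 9.37 and 9.12 in wild-type lines, with a log2 fold change of -0.29 (SE 0.24) and overlapping groups. Pcolce, which speeds the trimming of procollagen, had 11.13 and 11.81 in RBP2-null lines and 11.42 and 11.71 in wild-type lines, with a log2 fold change of -0.10 (SE 0.24).

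Set side by side, the functional groups had median log2 fold changes of -0.198 for crosslinking, -0.168 for elastic fibres, -0.112 for proteoglycans, -0.029 for adhesive glycoproteins and 0.103 for laminins and nidogens. With the mean of all probe sets of a gene the elastic fibre median was 0.089. The position of a median against 0 also rests on the scaling. Without scaling the median of all tested probe sets was 0.384, and the crosslinking median was then 0.262 and the laminin median 0.594, which is below and above that of all probe sets. The groups also differed in how far single genes lay from 0. The median absolute log2 fold change was 0.41 for proteoglycans and 0.36 for elastic fibre genes, but 0.10 for adhesive glycoproteins, 0.15 for laminins and nidogens and 0.20 for crosslinking genes, beside 0.21 over all tested probe sets. The median standard errors were 0.30, 0.26, 0.21, 0.26 and 0.21 in the same order of groups, so the groups also differed in precision. No test between the groups was made, since genes of a group are not replicates.

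**Figure D3:**
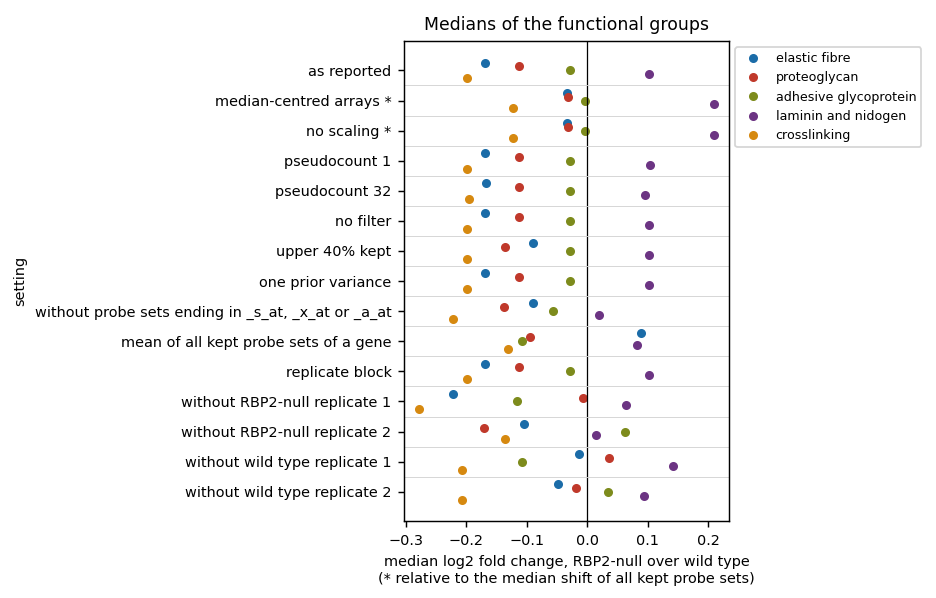
Median log2 fold change, RBP2-null over wild type (x axis), of each functional group under the reported setting and each alternative (y axis). The medians lie between -0.278 and 0.210, where the settings marked with an asterisk are drawn relative to the median of all tested probe sets (0.183 with median-centred arrays, 0.384 without scaling), and dropping the filter, using one prior variance or adding the replicate block cannot move these medians. The settings marked with an asterisk coincide by construction.

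Much of the spread in these genes lay between lines of the same genotype. The median absolute difference between lines was 0.37 in RBP2-null cells and 0.32 in wild-type cells for the matrix genes, beside 0.30 and 0.34 over all tested probe sets. Line 2 was higher than line 1 within each genotype for 17 of the 42 genes and lower within each for 12, where over all tested probe sets the counts were 7392 and 7595 of 27022. The numbers name the lines, and the labels do not say that lines with the same number share an origin. Mfap4 had line 2 minus line 1 differences of 1.75 in RBP2-null and 3.13 in wild-type cells. Lum had 2.00 and 1.47, and Efemp1 had 1.18 and 1.77 in the same order. Matn2 had 0.67 and 1.84, and Lama4 had 0.82 and 2.40. For each of these 5 genes, picked for their large line differences, the lines of at least 1 genotype differed by more than the genotypes did. The same held for Fn1, with -0.19 and -0.20, and Vcan, with -0.21 and -0.06, beside log2 fold changes of 0.01 for both. The comparison thus does not set the 5 genes apart, and a difference between single arrays varies more than one between group means.

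Wild-type replicate 1 was the array farthest from the other arrays for 14 of the 42 genes, or 33.3%, as it was for 37.6% of all tested probe sets. It was the low array for 8 of these genes, among them Efemp1, Dcn, Matn2, Lama4 and Fbn2, and the high array for 6, among them Eln and Hspg2. It was also the lowest array for 7 of the 10 fibroblast markers, and Pdgfra and Fap were lowest there by the widest margin as a ratio to the next array. Pdgfra, a receptor of mesenchymal cells, had normalized signals of 168 and 448.1 in RBP2-null lines and 43.6 and 478.6 in wild-type lines. Fap, a protease of activated fibroblasts, had 101.6 and 66 in RBP2-null lines and 19.2 and 141.5 in wild-type lines. All 5 smooth muscle markers passed the filter, and their sum was higher in line 1 of each genotype, with values of 17117 and 13547 in RBP2-null lines and 17425 and 13766 in wild-type lines. The part of these marker differences in the matrix values was not tested.

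**Figure D4:**
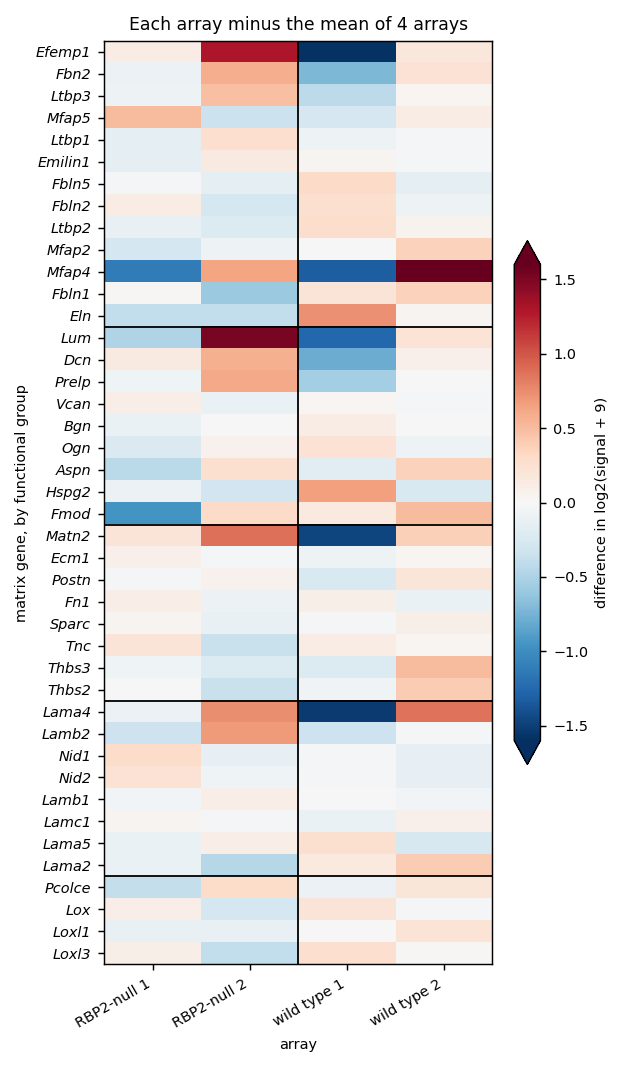
Normalized log2 signal of each matrix gene (rows, by functional group) on each array (columns), as the difference from the gene's mean over 4 arrays. Efemp1, Lum, Dcn, Matn2 and Lama4 are low in wild-type replicate 1, and Eln and Hspg2 are high there.

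**Figure D5:**
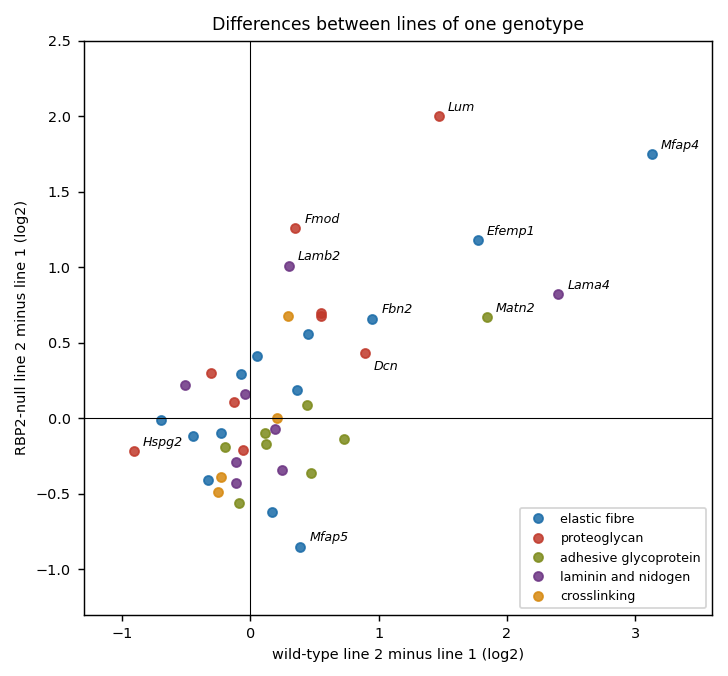
Difference between line 2 and line 1 in RBP2-null cells (y axis) against the same difference in wild-type cells (x axis), both on the log2 scale, with 1 point per matrix gene. Mfap4, Lum, Efemp1, Lama4 and Matn2 lie in the upper right, with line 2 higher in each genotype.

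Probe sets of the same gene were a further source of spread. Of the 95 probe sets that carry the symbol of a matrix gene, 81 passed the filter, and 27 genes had at least 2 of these. For 12 of the 27 the probe sets lay on opposite sides of 0. The widest ranges were those of Matn2, from -0.04 to 1.08, and Lox, from -0.17 to 0.82, and the narrowest those of Bgn, Hspg2 and Ltbp1, at 0.02 each.

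Other matrix genes, listed by role, also included no gene past the threshold. Of 110 symbols in 7 lists, 88 genes passed the filter, 49 of them with estimates below 0 and 39 above, a median of -0.052 and 0 called in either direction, and 2 of the 88, Ddr1 and Mgp, had an unadjusted limma p under 0.05, against 2.98% of all tested probe sets. Among 16 matrix receptors, 10 had estimates above 0 and 6 below. Ddr1, a collagen receptor kinase, had 8.35 and 8.45 in RBP2-null lines and 7.29 and 8.03 in wild-type lines, a log2 fold change of 0.74 (SE 0.29). Itga6, a laminin-binding integrin chain, had 0.47 (SE 0.23), and its groups did not overlap. Among 24 genes that build glycosaminoglycan chains, 8 estimates lay above 0 and 16 below, and Ust, which sulphates uronic acid, and B3gat3, which completes the linker to the core protein, had -0.64 and -0.57. Of 10 further matricellular genes 7 lay above 0 and 3 below. Mgp, the matrix Gla protein that inhibits calcification, had 9.93 and 11.43 in RBP2-null lines and 9.52 and 9.76 in wild-type lines, a log2 fold change of 1.04 (SE 0.41), and Matn3 had 0.78. In the remaining lists, 6 of 8 further basement membrane genes lay below 0, with -0.35 for Col4a1 and -0.31 for Col4a2. Of 7 genes listed with the elastic fibre, 3 of which are TGF-beta growth factors and not fibre components, 6 lay below 0, with -0.40 for the growth factor Tgfb3 and -0.33 for Emilin2. The 13 further proteoglycans split into 6 above and 7 below, with 0.59 for Prg4 and 0.62 for Omd, and the 10 further crosslinking and processing genes into 5 and 5, with 0.33 for the procollagen protease Tll1 and -0.31 for the lysyl hydroxylase Plod1.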

How the data were processed

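RNA of 4 lines of mouse embryonic fibroblasts was hybridised to Affymetrix 1-colour arrays with a biotin label, per the labels. The authors deposited linear intensity values, 1 for each probe set on each array, without a common scale. Nothing in the sources used here says how probes were summarised. The number of arrays limits the precision, and since nothing says how the lines arose, p-values reflect just the variation among these lines, which may be technical. With 2 lines against 2, an exact two-sided permutation test cannot give a p below 0.333, so the spread was pooled over probe sets.

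The 64 control probe sets were left out, the other 45037 were quantile normalized, and log2(signal + 9) was taken, 9 being the 25th percentile of the signals. The upper 60% by mean were kept (27022). RBP2-null was compared with wild type with limma 3.58.1 in R 4.3.3 (lmFit, eBayes with a mean-dependent prior, two-sided, Benjamini-Hochberg over all kept probe sets). The fold changes understate changes of dim probe sets. Names came from a platform annotation, updated through RefSeq of GRCm38.p6. The fit was tested on simulated data. Alternatives covered scaling, pseudocount, filter, variance model, probe set choice, replicate number as a block and each array left out. The genes, groups and lists were chosen with earlier results of these data known. Full values are given for up to 4 genes of each functional group with the smallest unadjusted p. Up to 2 genes of each further list are given by fold change, with values in every array only for Ddr1 and Mgp.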

Additional observations from a re-analysis of the deposited data

How the results depend on the processing

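The count of matrix genes past the threshold was 0 under every alternative run except the replicate block, where it was 2, and between 0 and 10 of them had an unadjusted limma p under 0.05. Over all probe sets between 189 and 3216 had such a p. The count over all probe sets was 2 with median-centred arrays, 0 without scaling, without the filter, with one prior variance and with the mean of all probe sets of a gene, and 0 to 41 with 1 array left out, the highest when wild-type replicate 2 was left out, against 2 when wild-type replicate 1 was. With the replicate number as a block it was 49, and Efemp1 (limma adjusted p 8.34e-06) and Matn2 (0.0339) passed at unchanged log2 fold changes of 1.40 and 1.08. That fit leaves 1 residual degree of freedom per probe set. The labels do not say that lines of 1 number share an origin, and with 2 numbers the data cannot settle it, so the numbers were not taken as pairs. The deviations of same-numbered arrays from their group means correlated at 0.113 over 27022 probe sets and at 0.674 over the 42 matrix genes. Without scaling all probe sets shifted by a median of 0.384, and with median-centred arrays by 0.183, and values in those settings are relative to that shift. Relative to it, both settings give the same fold changes by construction, so they count as 1 check. The elastic fibre median was -0.033 in both, -0.090 with the upper 40% kept and without probe sets that can bind several transcripts, and 0.089 with the mean of all probe sets. It lay between -0.222 and -0.013 with an array left out. The laminin and nidogen median was 0.210 in both scalings, 0.020 without such probe sets and 0.015 to 0.142 with an array left out. The median of all 42 genes was -0.093 without such probe sets and -0.035 to 0.011 with an array left out. Of 279 values of the 20 genes given in full, 264 kept their direction and their side of the threshold. Many of these could not turn in direction. Changing the filter or the variance model, or adding the replicate block, leaves the fold change of a probe set as it is. Direction turned for Tnc, at 0.00 both with median-centred arrays and without scaling, for Matn2 at -0.04 without probe sets that can bind several transcripts, and for Lox at 0.19 with the mean of all probe sets. With 1 array left out the range crossed 0 for Hspg2 (-0.86 to 0.05), Tnc (-0.41 to 0.15), Thbs3 (-0.68 to 0.08), Nid1 (-0.06 to 0.37), Lama4 (-0.57 to 1.85), Lamb2 (-0.14 to 0.86), Lox (-0.34 to 0.02) and Pcolce (-0.45 to 0.24). Over all 42 genes, 20 kept their sign with each array left out. The cause of these changes was not tested, beyond the fewer arrays or probe sets that a setting uses. With an array left out, the lone array of a genotype is assumed to vary like the others.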
